A study of Mus musculus with 6 samples.

Results

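The Gadd45 genes, Gadd45a, Gadd45b and Gadd45g, were followed in mouse embryonic stem cells in which translation had been blocked. They are 3 of the 17484 named genes in the count files and were taken by their exact symbols, which leaves out Gadd45gip1, a gene for a binding partner. The family was chosen by measured values, since its CPM (counts scaled to the library total) and fold changes in these libraries were already known to be higher after treatment, so both are given as a description with no p-value. Where the threshold of the all-gene test is mentioned for these genes, it supports nothing, since the same values chose them. The cells were E14 mESCs of 129/Ola origin in medium with serum and LIF, a cytokine that keeps them pluripotent, and every group was treated 24 h after seeding. Control cells received ethanol alone for 9 h, and treated cells received cycloheximide, which stops translation elongation, for 3 h or 6 h (250 µg/mL, carried in 0.007% ethanol). Each of the 3 groups had 2 libraries of polyadenylated RNA, labelled replicates 1 and 2. Drug and hours of exposure cannot be told apart in the comparisons with control, because the ethanol cells were exposed for longer than either treated group. Nothing in the labels says whether replicates came from separate cultures, so p-values measure the spread between these libraries, which may be technical.

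Gadd45 proteins are small, acidic, stress-inducible proteins without known enzymatic activity that act by binding other proteins. They bind the kinase MAP3K4 upstream of p38 and JNK, the mitotic kinase complex of CDK1 and cyclin B1, the replication clamp PCNA and the inhibitor p21, and Gadd45a has been tied to active DNA demethylation through TET and TDG enzymes. Gadd45a is a classic target of p53 and of stress-responsive factors such as ATF4, Gadd45b is induced by NF-kB and TGF-beta signalling, and Gadd45g was found as a cytokine-induced gene. Their messenger RNAs are short-lived, and Gadd45a and Gadd45b transcripts have been described as substrates of nonsense-mediated decay, a surveillance pathway that needs translation.

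Library totals ranged from 9385447 counts (control replicate 2) to 27351077 (6 h replicate 1), and both 6 h libraries were deeper than all others. The mitochondrial share of counts was 24.7% and 24.9% in the controls, 18.9% and 19.6% after 3 h, and 16.6% and 17.4% after 6 h. Summed CPM of 12 pluripotency markers were 6831 and 7066 in the controls, 8927 and 9475 in 3 h libraries, and 7186 and 7277 in 6 h libraries. Those of the 5 fibroblast markers in the files lay between 3.46 and 8.84, with the fibroblast marker Dcn under 3 counts in every library. Neural markers summed to 285 and 296 CPM in the controls, 284 and 334 in 3 h libraries, and 151 and 160 in 6 h libraries, and mesoderm markers to between 4.58 and 10.6 CPM in the 6 libraries. Trophectoderm markers (3 in the files) summed to 3.95 and 6.07 CPM in the controls, 10.3 and 12.6 in 3 h libraries, and 13.5 and 15.3 in 6 h libraries. Scaled to the library total alone, the trophectoderm and the pluripotency sums were thus higher in every treated library, as the Gadd45 genes were. For pluripotency markers the margin at 6 h was small. Treated libraries also lay above all controls for 28.5% of all tested genes at 3 h and 35.7% at 6 h. Primitive endoderm markers summed to 36.1 and 47.6 CPM in the controls, 52 and 52.8 in 3 h libraries, and 19.7 and 23.3 in 6 h libraries. The part of the mitochondrial share, of depth and of these markers in the results was not tested. Levels below are CPM after scaling by trimmed mean of M values (TMM).

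The 3 genes lie on different chromosomes of the mm10 (GRCm38) genome, and each has a principal transcript of 4 exons in GENCODE M21. Gadd45a is on the minus strand of chr6:67035096-67037457, Gadd45b on the plus strand of chr10:80930073-80932204 and Gadd45g on the plus strand of chr13:51846678-51848468. Their promoters, the 250 bases before the RefSeq start (build GRCm38.p6), are shown because all 3 genes were higher in every treated library, by different amounts, and their sequences share elements. The windows are chr6:67037408-67037657 on the minus strand, chr10:80929841-80930090 on the plus strand and chr13:51846425-51846674 on the plus strand. The RefSeq starts of Gadd45a and Gadd45b lie inside the first GENCODE exon, so the last bases of those windows are annotated there as transcribed. They read 5′ to 3′ toward the gene, with capitals marking the octamer (ATGCAAAT or its reverse ATTTGCAT, the site read by POU factors such as OCT1 and OCT4), CCAAT boxes and TATA boxes (TATAAA):
Gadd45a: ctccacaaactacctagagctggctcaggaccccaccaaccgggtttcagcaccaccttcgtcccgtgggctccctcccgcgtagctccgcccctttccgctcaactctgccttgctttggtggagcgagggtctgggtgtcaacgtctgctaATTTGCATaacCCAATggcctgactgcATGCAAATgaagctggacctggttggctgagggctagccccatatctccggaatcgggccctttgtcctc
Gadd45b: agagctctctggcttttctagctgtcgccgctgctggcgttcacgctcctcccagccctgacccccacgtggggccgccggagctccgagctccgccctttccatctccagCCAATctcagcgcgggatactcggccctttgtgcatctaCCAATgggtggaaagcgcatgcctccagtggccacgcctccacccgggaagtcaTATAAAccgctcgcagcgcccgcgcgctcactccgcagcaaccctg
Gadd45g: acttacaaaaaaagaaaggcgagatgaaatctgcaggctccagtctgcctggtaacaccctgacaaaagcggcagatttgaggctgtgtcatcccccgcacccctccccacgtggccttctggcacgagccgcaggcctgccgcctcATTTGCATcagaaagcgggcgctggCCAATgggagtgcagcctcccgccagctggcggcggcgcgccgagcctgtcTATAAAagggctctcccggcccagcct

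The octamer was found in 2 of the 3 promoters and in 1.62% of 32536 RefSeq promoter windows of this length, with both strands searched for every motif. Gadd45a held it at 97 and at 70 bases before the start, on either side of a CCAAT box at 86 bases, and Gadd45g held it at 103 bases with a CCAAT box at 78. All 3 promoters held CCAAT, Gadd45b at 139 and 100 bases, against 33.8% of all windows. TATAAA was present in Gadd45b (46 bases before the start) and Gadd45g (27 bases), and in 12.3% of all windows. Both also held the E-box CACGTG, at 185 and 142 bases, which occurred in 6.04% of windows. The GC box GGGCGG was matched in Gadd45a and Gadd45b and in 33% of windows. No window of the 3 held the cyclic AMP element TGACGTCA (1.56% of all windows) or its core TGACG (17.9%, overlapping the former). None held the AP-1 site TGANTCA (6.73%), the forkhead site GTAAACA (3.17%) or the EGR site GCGTGGGCG (0.541%). These are matches of letters and not measured binding. G and C made up 59.2% (Gadd45a), 65.2% (Gadd45b) and 62% (Gadd45g) of the windows, against a median of 52.4% over all windows. The shares over all windows are not matched for this. Among tested genes with a promoter window, the median log2 fold changes for 3 h and 6 h were 0.07 and 0.01 in the 145 with an octamer, and 0.02 and 0.03 in the 9327 without.

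**Figure D1:**
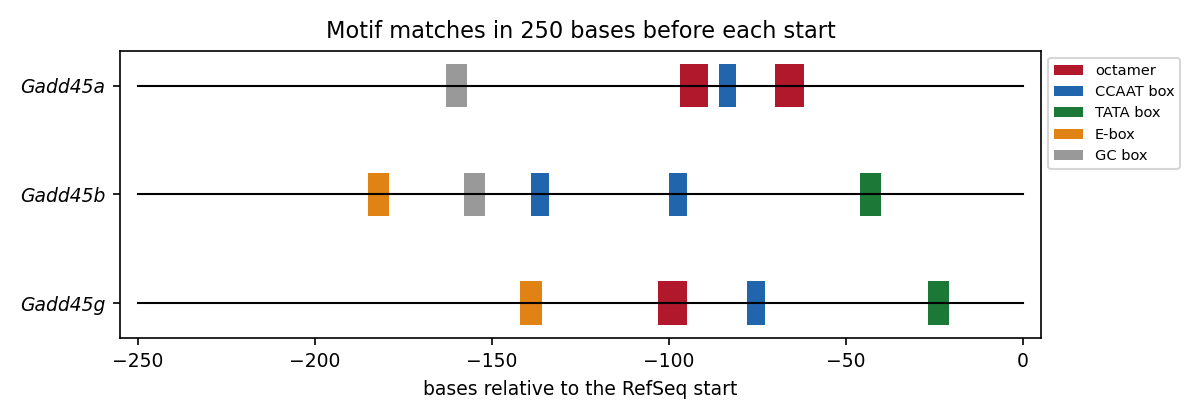
Matches of 5 motifs in the 250 bases before the RefSeq start of each Gadd45 gene. The horizontal axis is the distance to the start in bases and each coloured block is 1 match on either strand. CCAAT boxes lie in all 3 windows and octamers in those of Gadd45a and Gadd45g.

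Gadd45a, the p53- and stress-responsive member, had the most counts of the family in every library, and per transcript length as well (values per kilobase are given further on). Replicates 1 and 2 held 1492 and 969 counts without drug, 5255 and 5534 after 3 h, and 11474 and 11465 after 6 h. The matching levels were 111 and 118 CPM, then 339 and 320, then 378 and 439. Every treated library stood above both controls, and both 6 h libraries stood above both 3 h libraries by a small margin. Its log2 fold change was 1.53 ± 0.12 (SE) at 3 h and 1.84 ± 0.12 (SE) at 6 h against control, or 2.88-fold and 3.57-fold. In bulk libraries, a change in the number of cells with a transcript and a change in the amount per cell cannot be told apart. Of the gain in CPM over control, 215 came within 3 h and a further 79.5 between 3 h and 6 h.

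An annotated noncoding gene on the opposite strand, E230016M11Rik, overlaps 859 bases of Gadd45a, and strandedness of the libraries is not given in the sources used here. Reads of the overlap therefore cannot be assigned with certainty. E230016M11Rik itself had 10 and 5 counts without drug, then 18 and 16, then 69 and 55, equal to between 0.289% and 0.67% of the Gadd45a count of the same library.

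Gadd45b, the member induced by NF-kB and TGF-beta signalling, was less abundant than Gadd45a per transcript length. Its counts were 96 and 62 without drug, 303 and 218 after 3 h, and 641 and 658 after 6 h, or 7.11 and 7.57 CPM, then 19.6 and 12.6, then 21.1 and 25.2. The 3 h libraries differed more from each other than the controls did, and 3 h replicate 1 reached nearly the level of 6 h replicate 1. The log2 fold change was 1.13 ± 0.25 (SE) at 3 h and 1.66 ± 0.25 (SE) at 6 h, or 2.19-fold and 3.16-fold. The 3 h value rested in part on 1 library: it was 0.78 without 3 h replicate 1 and 1.42 without 3 h replicate 2.

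Gadd45g, the cytokine-induced member, had few counts in control cells. Its counts were 11 and 8 without drug, 175 and 188 after 3 h, and 977 and 1302 after 6 h. In CPM these were 0.815 and 0.977, then 11.3 and 10.9, then 32.2 and 49.9. The exact 95% Poisson intervals of the controls ran from 0.407 to 1.46 and from 0.422 to 1.93 CPM, and the lowest bound of any treated library was 9.36. These intervals cover counting error only, and a count of 3, taken as the detection floor, equals between 0.11 and 0.32 CPM before scaling. Against control the log2 fold change was 3.64 ± 0.34 (SE) at 3 h and 5.53 ± 0.32 (SE) at 6 h, or 12.5-fold and 46.3-fold. Single treated libraries were between 11.1-fold and 13.9-fold above single controls at 3 h, and between 33-fold and 61.2-fold at 6 h. The 3 h libraries agreed closely, while the 6 h libraries differed by more than their counting intervals.

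**Figure D2:**
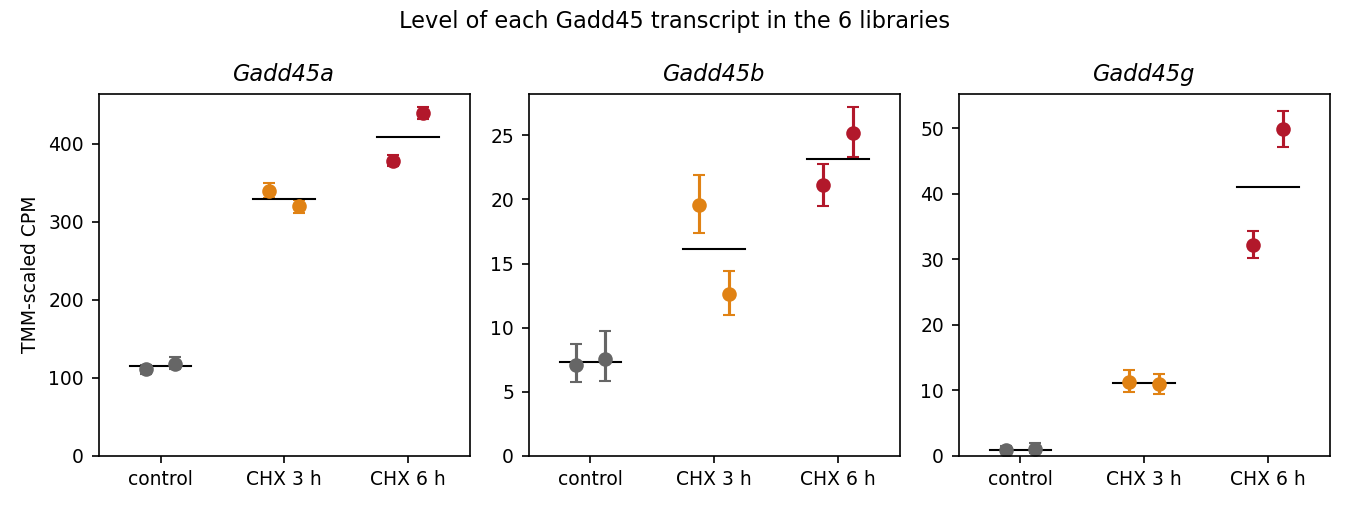
TMM-scaled CPM of Gadd45a, Gadd45b and Gadd45g (vertical axis, from 0, a separate scale for each gene) in the ethanol control, 3 h and 6 h cycloheximide libraries. Points are libraries with exact 95% Poisson intervals and black lines are group means. Every treated library lies above both controls for each gene, and the 3 h libraries of Gadd45b lie apart at 19.6 and 12.6 CPM.

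Levels of different genes can be compared only per transcript length, assuming reads along the whole transcript, which the sources used here do not state. With principal transcripts of 1223, 1284 and 1071 bases, the order in control was Gadd45a (90.8 and 96.5 CPM per kilobase), Gadd45b (5.54 and 5.9) and Gadd45g (0.761 and 0.912), with no overlap between neighbours. At 3 h Gadd45a stood at 277 and 262 CPM per kilobase, while Gadd45b (15.3 and 9.81) and Gadd45g (10.6 and 10.2) overlapped. At 6 h Gadd45a remained first at 309 and 359, and Gadd45g (30.1 and 46.6) was above Gadd45b (16.4 and 19.6) in every library. The order of the last 2 was thus reversed between control and 6 h.

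Across 12755 tested genes, edgeR's quasi-likelihood test with Benjamini-Hochberg adjustment called 4.90% changed at 3 h and 29.0% at 6 h against control, at an adjusted p under 0.05. By that rule 3 of the 3 Gadd45 genes were past the threshold at each time. All treated libraries were above all controls for 3 of 3 members at each time, and for 28.5% of all genes at 3 h and 35.7% at 6 h, while 24.8% and 31.2% of all genes had every treated library below the controls. The genes were chosen for this behaviour, so nothing is read from these counts. Gadd45b was past the threshold at 3 h in 10 of the 18 settings run, the reported one included, and was not past it with limma-voom, with a fit to the 2 groups alone, with a replicate block, or without control replicate 1 or 2, 3 h replicate 1, or 6 h replicate 1 or 2. All 3 genes were past it at 6 h in all 18. The setting with a prior count of 2 alters fold changes only, so its passing repeats that of the reported fit. In the order of log2 fold changes from the highest, Gadd45g stood at place 119 at 3 h and 102 at 6 h, Gadd45a at 644 and 751, and Gadd45b at 1046 and 906. The 5th and 95th percentiles of all tested genes were -0.69 and 1.53 at 3 h and -0.98 and 2.01 at 6 h, with medians of 0.02 and 0.04. With library size alone in place of TMM these medians were 0.25 and 0.40. The share of called genes that were higher was then 95.8% at 3 h and 88.2% at 6 h, against 73.4% and 50.8%.

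Between 3 h and 6 h Gadd45g rose by more on the log2 scale than Gadd45a and Gadd45b did. Gadd45g was higher at 6 h than at 3 h by a log2 fold change of 1.89 ± 0.23 (SE), or 3.7-fold, with every 6 h library at least 2.85-fold above every 3 h library. Gadd45b differed by 0.53 ± 0.23 (SE) and Gadd45a by 0.31 ± 0.11 (SE). The lowest ratio of a 6 h to a 3 h library was 1.08 for Gadd45b and 1.12 for Gadd45a. The all-gene test called 1.64% of genes in this comparison (0.455% higher and 1.18% lower at 6 h) and 1 of the 3 family members, Gadd45g, which was not past the threshold without either 3 h library or without 6 h replicate 2 (log2 fold change of 1.54 without the latter). Higher values without overlap were found for 3 of 3 members and for 27.2% of all genes, with lower values for 26.9%. The Gadd45b difference was 0.88 without 3 h replicate 1 and 0.24 without 3 h replicate 2. On the log2 scale, the 3 h difference from control amounted to 83% of the 6 h difference for Gadd45a, 68.1% for Gadd45b and 65.9% for Gadd45g. These comparisons share the control libraries.

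**Figure D3:**
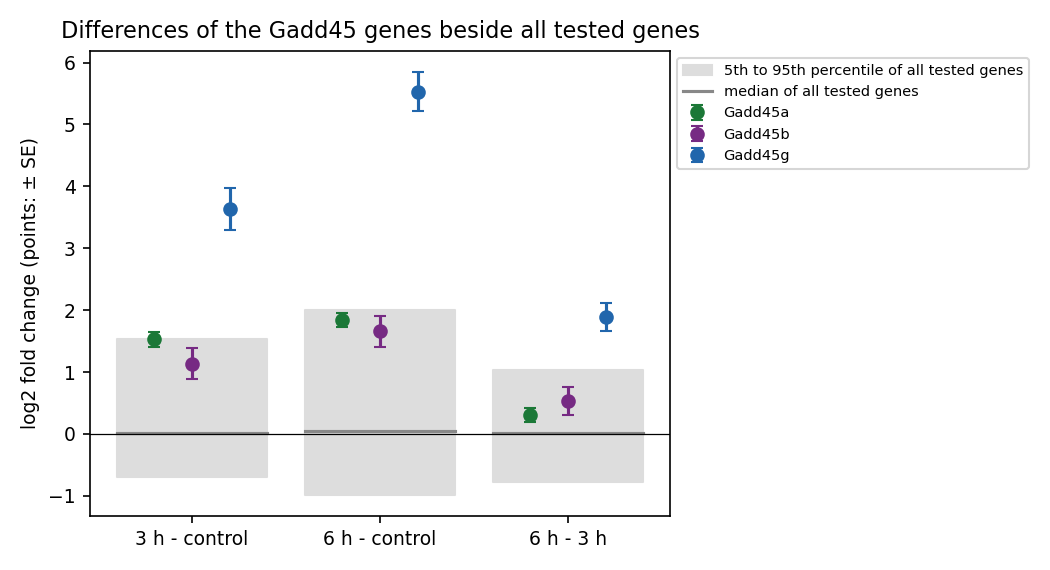
Log2 fold changes of the Gadd45 genes (points, with the standard error of the fit) in the 3 comparisons. Grey boxes span the 5th to 95th percentile of the 12755 tested genes and grey lines mark their medians. Gadd45g lies above the box each time, at 3.64, 5.53 and 1.89, while Gadd45a and Gadd45b lie in its upper part or at its edge.

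The genes with the course most like each member were found among 10026 tested genes with descriptive symbols and at least 20 counts in every treated library. Likeness was the root mean square difference, over the 4 treated libraries, of log2 CPM (prior count 2) from the control mean. For Gadd45a the nearest were Sh3gl3 (0.10), Id2 (0.10) and Narg2 (0.11). Id2, an inhibitor of helix-loop-helix factors, was fitted at 1.61 (3 h) and 1.87 (6 h) on the log2 scale. Narg2 was fitted at 1.31 and 1.74, below the values of Gadd45a, and its uneven control counts of 205 and 51 make its likeness less certain. Sh3gl3 had 42 and 1 counts in the controls, and its fitted values of 0.51 and 0.86 lie well below those of Gadd45a, so its control mean is poorly set and its likeness uncertain. For Gadd45b the nearest were Itfg2 (0.09), Plekhg1 (0.10, with 42 and 4 control counts) and Wdr85 (0.12). Their fitted log2 fold changes were 1.07 and 1.55 for Itfg2, 1.01 and 1.47 for Wdr85, and 0.53 and 1.17 for Plekhg1, the last again below those of the member. For Gadd45g the nearest were Wisp1 (0.36), which encodes a secreted CCN-family protein, Cpm (0.42), a carboxypeptidase, and Syngr4 (0.48). All of these had between 0 and 4 control counts, and the filter on counts looked at treated libraries only. Their control means, set largely by the prior count, are thus poorly known and their likeness to Gadd45g is uncertain. Within the family, Gadd45b was place 181 in the order of likeness to Gadd45a (0.39), and Gadd45g was place 9935 (2.84).

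Gadd45a was the member with AU-rich pentamers. ATTTA, a core of destabilising AU-rich elements, occurred 2 times in the 563-base 3′ untranslated region of Gadd45a and 0 times in those of Gadd45b (558 bases) and Gadd45g (489 bases). Of 1079 tested genes with a 3′ untranslated region of 500 to 700 bases, a range just above that of Gadd45g, 55.8% held at least 1 and 27.1% at least 2. The sites are shown with ATTTA in capitals and 12 bases on each side, at positions 261 and 506 of that region:
Gadd45a site at 261: agaaaactgctaATTTAggatggccaggt
Gadd45a site at 506: atgtgaaaggttATTTAtgataaagtttt
The longer element TTATTTATT was found in none of the 3, against 7.61% of 11501 tested genes with a region of any length. No ATG lay in the annotated 5′ leaders of Gadd45a (162 bases), Gadd45b (243) and Gadd45g (102), while 51.6% of 11443 genes held one in leaders of any length. A share for leaders of like length was not computed.

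Genes that work with or upstream of Gadd45 were taken from 10 lists holding 161 genes, of which 155 were tested, and a gene may stand in more than 1 list. At 3 h 26 of the 155 were called higher and 3 lower, and at 6 h 37 were called higher and 27 lower. In all tested genes 3.60% were called higher and 1.30% lower at 3 h, and 14.8% and 14.3% at 6 h. Without either 3 h library, each left out singly here and below, the 3 h count of 29 was 14, and without 6 h replicate 2 the 6 h count of 64 was 37. Unless an exception is given, genes named below as called were called in all alternatives. This does not cover genes named as not called, which may be called in an alternative.

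In the list of stress kinases that work with Gadd45 (16 tested), edgeR called 0 at 3 h, against 4.90% of all genes, with 2 at an unadjusted p under 0.05, 2 by DESeq2 and 0 by limma-voom. At 6 h 1 was higher (Map3k1, a kinase upstream of JNK, 0.79, adjusted p = 0.00686, and 0.0594 without 6 h replicate 2) and 2 lower, with a median log2 fold change of -0.03, and library size alone called 6. Over all genes 29.0% were called at 6 h. Those that fell were Atf2, a transcription factor phosphorylated by p38 and JNK, from 170 ± 4.32 to 86.9 ± 5.37 CPM (SD, n = 2; log2 fold change -0.97, adjusted p = 0.000982), and Mapkapk3, a kinase downstream of p38, by 0.88 on the log2 scale (adjusted p = 0.00328). Map3k4, the kinase that Gadd45 proteins bind, stood at -0.10 (3 h) and 0.27 (6 h) on the log2 scale (adjusted p = 0.853 and 0.458). Mapk14, which encodes p38 alpha, had 0.41 at 6 h (adjusted p = 0.0733) and was called with library size alone.

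In all tested genes 14.3% were called lower at 6 h and 14.8% higher. Of 12 cell cycle and replication partners, 7 were called lower at 6 h and 2 higher, with a median of -0.44. The higher ones were Cdkn1b, an inhibitor of cyclin-dependent kinases (0.71, adjusted p = 0.0109, a call lost without 6 h replicate 1), and the phosphatase gene Cdc25c (0.67, adjusted p = 0.0478), the latter named after its value was seen and not run singly under the alternatives. Without 6 h replicate 1 the count of 9 was 4, and with library size alone it was 5. Cdk1 fell from 739 ± 4.68 to 386 ± 15.5 CPM (SD, n = 2) by 6 h, a log2 fold change of -0.94 ± 0.11 (SE; adjusted p = 0.00106). Ccnb1, which encodes cyclin B1, fell by 0.95 on the log2 scale (adjusted p = 0.00113), and Plk1, a mitotic kinase, fell by 1.23 (adjusted p = 0.000485). Pcna had a log2 fold change of -0.49 (adjusted p = 0.00422), and of -0.13 with library size alone (adjusted p = 0.235). Cdkn1a, which encodes p21, stood at 0.07 on the log2 scale (adjusted p = 0.767).

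Among genes of active DNA demethylation and excision repair, 3 of 17 tested were called higher (Ercc4, Ercc5 and Taf12) and 2 lower (Tet2 and Parp1) at 6 h, a share close to the 29.0% of all genes. Of these calls, that of Ercc4 held in every alternative. The count of 5 was 2 without 6 h replicate 1, 1 without 6 h replicate 2 and 3 without control replicate 2. Ercc4, a subunit of an excision repair nuclease, rose from 18.5 ± 2.5 to 42.9 ± 0.527 CPM (SD, n = 2; log2 fold change 1.22, adjusted p = 0.00153). Tet1, the main TET enzyme of stem cells, stood at -0.27 on the log2 scale (adjusted p = 0.249), and between -0.51 and 0.08 over the alternatives. Tdg, the glycosylase of this pathway, was not tested because it had at most 6 counts in any library. How reads that match several places were counted is not given in the sources used here, so this count does not show that Tdg was not expressed.

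Other genes of the GADD group moved unevenly. Ddit3, also known as Gadd153 or CHOP, was at 1.94 ± 0.0201 CPM in control, 5.63 ± 1.11 at 3 h and 5.04 ± 0.132 at 6 h (SD, n = 2). On the log2 scale it rose by 1.54 by 3 h (adjusted p = 0.0379) and by 1.38 by 6 h (adjusted p = 0.0158). The 3 h call did not hold without any 1 of the 6 libraries (adjusted p from 0.0581 to 0.2), nor with limma-voom (0.0816), a fit to the groups compared alone (0.0956) or a replicate block (0.0593), and the 6 h call did not hold without 6 h replicate 1 or 2 (0.0686 and 0.0857). Ppp1r15a, also known as Gadd34, had log2 fold changes of -0.21 and -0.33 (adjusted p = 0.521 and 0.221), the latter between -0.55 and 0.03 over the alternatives. Gadd45gip1, whose product binds Gadd45 proteins, fell by 0.66 at 6 h (adjusted p = 0.0139), a call that did not hold without 6 h replicate 1 or 2 (0.0698 and 0.0991) or with library size alone (0.164). Npm1, which encodes a nucleolar protein that binds Gadd45a, fell by 0.67 at 6 h (adjusted p = 0.00153).

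The shares called over all genes were 4.90% at 3 h and 29.0% at 6 h. Among 20 tested transcription factors reported upstream of Gadd45 genes, 5 were called higher and 0 lower at 3 h. At 6 h 6 were called higher and 1 lower. The 3 h count was 2 without either 3 h library and 3 without control replicate 2 or either 6 h library, and the 6 h count was 4 without 6 h replicate 2 and 11 with library size alone. Limma-voom and a fit to the groups compared alone each called 3 at 3 h. Jun, an AP-1 subunit, rose from 25.9 ± 0.0307 to 253 ± 55.5 CPM by 3 h and was at 140 ± 1.39 by 6 h (SD, n = 2), or 3.29 and 2.43 on the log2 scale (adjusted p = 4.54e-05 and 7.52e-05). Egr1 rose by 4.10 by 3 h (adjusted p = 0.000176) and stood at 0.40 relative to control by 6 h (adjusted p = 0.332). Atf4 rose by 0.64 at both times (adjusted p = 0.0107 and 0.00288), and its 3 h call did not hold without 3 h replicate 1 or 2 (0.0952 and 0.0694). Trp53 had log2 fold changes of -0.10 and -0.19 (adjusted p = 0.569 and 0.193). Nfya, which encodes a subunit of the CCAAT-binding factor NF-Y, was called higher at 3 h (0.99, adjusted p = 0.0345), a call that did not hold without any 1 of the 6 libraries (adjusted p from 0.0559 to 0.159), with limma-voom (0.0544), with a fit to the groups compared alone (0.0703) or with a replicate block (0.0528). Myc, a repressor of Gadd45a, fell by 1.40 at 6 h (adjusted p = 0.00269).

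Of 21 tested p53 targets other than Gadd45a, 0 were called higher and 1 lower at 3 h, and 2 higher and 3 lower at 6 h (medians -0.09 and -0.08), with 29.0% of all genes called at 6 h. In the higher direction at 3 h the count of 0 is by edgeR, and over both directions 7 had an unadjusted p under 0.05, DESeq2 called 3 and limma-voom 1. The 6 h count of 5 was 3 without 6 h replicate 1 and 2 without 6 h replicate 2. The higher ones at 6 h were Rrm2b and Pmaip1, both at 1.46 (adjusted p = 0.00645 and 0.00763, and 0.0517 and 0.0624 without 6 h replicate 2). The calls of Ccng1 and Zmat3, among the lower, did not hold without 6 h replicate 1 or with library size alone, nor that of Zmat3 without 6 h replicate 2. Plk3, a stress-responsive kinase, fell by 1.12 at 6 h (adjusted p = 0.00379).

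The all-gene shares were 3.60% called higher and 1.30% lower at 3 h, and 14.8% and 14.3% at 6 h. NF-kB and TGF-beta are signals known to induce Gadd45b. In the list of their targets, 5 of 13 tested were called higher and 0 lower at 3 h. At 6 h 7 were called higher and 2 lower, and the medians were 0.92 (3 h) and 0.80 (6 h). The list includes Id1, Id2 and Id3, which are also BMP targets, so these counts do not read those 2 signals alone. Id2 and Id3 were among the higher genes at both times, and Id1 among the lower at 6 h. Library size alone called 8 at 3 h. Icam1, an adhesion molecule gene under NF-kB, rose from 62.4 ± 2.07 to 143 ± 4.18 CPM by 3 h and 194 ± 6.86 by 6 h (SD, n = 2, adjusted p = 0.00102 and 8.07e-05). Id3 rose by 2.45 and 2.48 (adjusted p = 4.54e-05 and 2.31e-05) and Id2 by 1.61 and 1.87 (adjusted p = 0.000517 and 0.000104). Id1, of the same family of helix-loop-helix inhibitors, fell by 1.03 at 6 h (adjusted p = 0.000629). Nfkbia, the feedback inhibitor of NF-kB, rose by 1.10 at 6 h (adjusted p = 0.0034).

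Immediate-early genes, transcribed within minutes of a stimulus without new protein, had 13 of 24 tested called higher and 0 lower at 3 h. At 6 h 9 were called higher and 5 lower (medians 0.95 at 3 h and 0.30 at 6 h). In all tested genes the called shares were 3.60% higher and 1.30% lower at 3 h, and 14.8% and 14.3% at 6 h. The 3 h count was 8 without either 3 h library, and the 6 h count of 14 was 9 without 6 h replicate 2. Klf10, a Krüppel-like factor, rose from 101 ± 5.54 to 342 ± 7.61 CPM by 3 h and 629 ± 3.19 by 6 h (SD, n = 2, adjusted p = 8.85e-05 and 7.58e-06). Junb rose by 1.62 at 3 h (adjusted p = 0.000341) and had -0.05 at 6 h (adjusted p = 0.813). Nr4a1, a nuclear receptor gene, fell by 1.55 at 6 h (adjusted p = 0.000718).

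Transcripts known as substrates of nonsense-mediated decay had 6 of 15 tested called higher and 0 lower at both 3 h and 6 h. Their medians were 0.08 and 0.49, and 3.60% (3 h) and 14.8% (6 h) of all genes were called higher. Without either 3 h library the 3 h count was 2, and with library size alone the 6 h count was 10. Snhg1, a host gene of small nucleolar RNAs, rose from 192 ± 11 to 751 ± 14.7 CPM by 3 h and 1079 ± 31.3 by 6 h (SD, n = 2, adjusted p = 4.54e-05 and 7.58e-06). Snhg12 rose by 1.90 and 2.52 (adjusted p = 0.000296 and 4.1e-05). Snhg1 and Snhg12 had the highest 6 h values of the 6 called. The others stood at 1.28 (Snhg5), 0.98 (Gas5), 0.64 (Atf4) and 1.38 (Ddit3). Beside the list median of 0.49, the 6 h log2 fold changes were 1.84 for Gadd45a, 1.66 for Gadd45b and 5.53 for Gadd45g. The part of nonsense-mediated decay in these values was not tested.

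Regulators of mRNA decay had 0 of 24 called at 3 h by edgeR, where 4.90% of all genes were called (29.0% at 6 h). At 3 h 9 regulators had an unadjusted p under 0.05, DESeq2 called 4 and limma-voom 0. At 6 h 4 were called higher and 5 lower, and without 6 h replicate 2 that count of 9 was 5. Upf2, a core factor of nonsense-mediated decay, rose by 1.15 (adjusted p = 0.00605), and Zfp36l2, which binds AU-rich elements, fell by 1.22 (adjusted p = 0.00192).

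**Figure D4:**
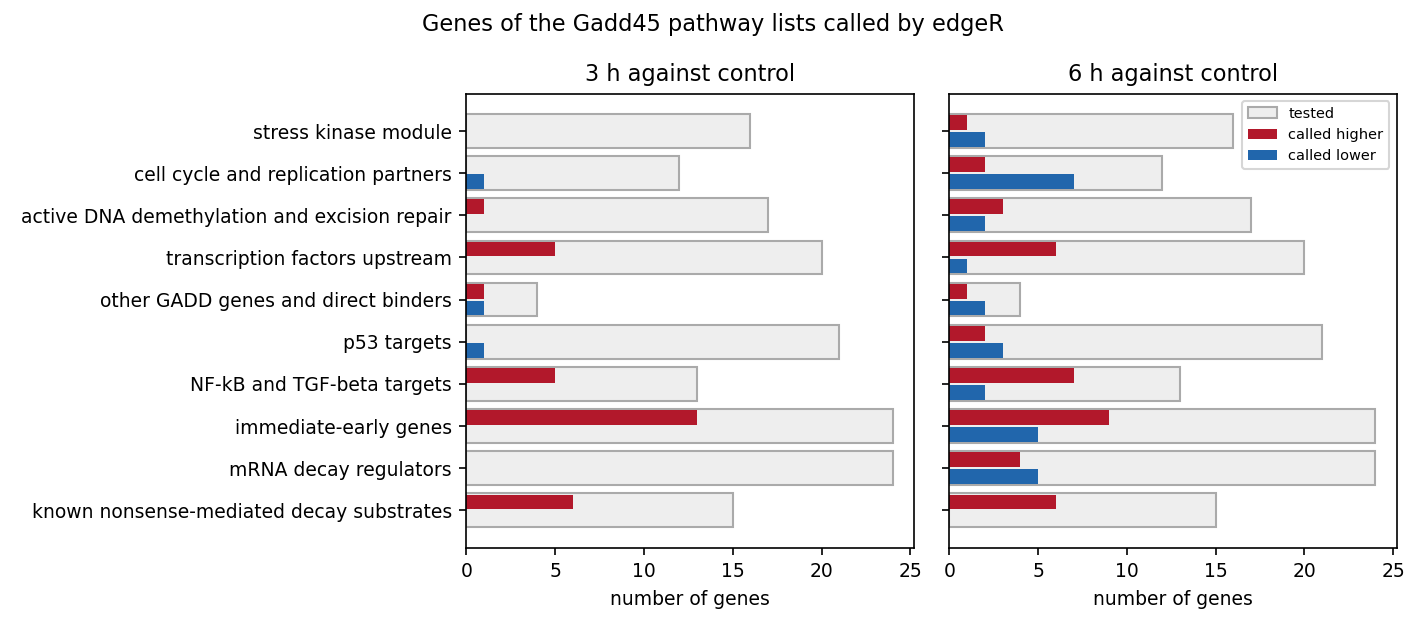
Number of genes (horizontal axis) tested (grey), called higher (red) and called lower (blue) by edgeR in each of 10 lists of Gadd45 partners, regulators and decay factors, at 3 h and 6 h against control. Cell cycle partners are mostly called lower at 6 h (7 of 12), and substrates of nonsense-mediated decay are called higher only (6 of 15 at both times). Over all tested genes 14.3% were called lower at 6 h, and 3.60% (3 h) and 14.8% (6 h) higher.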

How the data were processed

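Each library came as a deposited table of raw gene counts (whole numbers, not normalized), and per the submitters' processing notes the genome build was mm10. The aligner, the counting program, strandedness and whether duplicate molecules were collapsed are not given in the sources used here. The series' design text mentions single-cell sequencing, but each file holds 1 column and was analysed as 1 bulk library. Of 17485 entries per file, 1 names a reporter and no gene (at most 7.3e-06% of counts) and was left out.

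Counts were fitted with edgeR 4.0.16 in R 4.3.3. Genes passed filterByExpr (at least 10 counts in the median-sized library for 2 libraries and 15 in total), which left 12755 genes, and each of the 3 Gadd45 genes passed. TMM scaling, a mean per group over all 6 libraries and the quasi-likelihood test (3 residual degrees of freedom) were used, with a prior count of 0.125. The standard error (SE) is the log2 fold change divided by the square root of F. Benjamini-Hochberg adjusted p-values under 0.05 over all genes were called (two-sided tests). Levels are CPM, as mean ± SD (n = 2). Annotation came from GENCODE M21 and promoters from RefSeq (GRCm38.p6), with 3 of 3 genes matched in each. Replicate libraries differed beyond counting noise in each group (chi-square per degree of freedom 27.5, 18.7 and 27.7).

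The members and gene lists were chosen with earlier results of these data known. Named genes are the Gadd45 genes, 14 fixed partner genes, up to 5 called genes with the smallest p per list and comparison, and the 3 nearest genes in course per member. Alternatives covered DESeq2 1.42.0, limma-voom 3.58.1, other scalings and filters, a replicate block, thinned libraries, fits to the groups compared alone, robust moderation, another prior count and leaving out each library.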

Additional observations from a re-analysis of the deposited data

Results flagged for a closer look

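Genes of the partner and regulator lists are given here where the direct test of 6 h against 3 h (edgeR, adjusted p under 0.05) set the 2 exposure times apart. Values are log2 fold changes of 6 h against 3 h. In this comparison 1.18% of all tested genes were called lower and 0.455% higher. Immediate-early genes were the largest group of the lists, with 9 called lower and 1 higher. Among those that fell were Egr1 (-3.71, adjusted p = 0.00053), Junb (-1.67, adjusted p = 0.000988), Fos (-1.93, adjusted p = 0.0204), Nr4a1 (-1.47, adjusted p = 0.00621), Myc (-1.33, adjusted p = 0.0212) and Jun (-0.86, adjusted p = 0.0328). The others were Dusp1 (-0.83, adjusted p = 0.0369), Ier2 (-0.72, adjusted p = 0.0357) and Klf4 (-0.66, adjusted p = 0.0294), which were not run singly under the alternatives. Klf10 rose (0.88, adjusted p = 0.00608).

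Among signalling targets, Smad7, a feedback inhibitor of TGF-beta signalling, fell (-1.24, adjusted p = 0.0204) and Id1 fell (-0.86, adjusted p = 0.00988). The mitotic genes Plk1 and Ccnb1 fell (-0.78, adjusted p = 0.0211, and -0.57, adjusted p = 0.0489). Of the decay factors, Zfp36l1, which binds AU-rich elements, fell (-0.81, adjusted p = 0.0134) and Smg8 fell (-0.70, adjusted p = 0.0442). Snhg1 rose (0.52, adjusted p = 0.0364). Of the 14 genes run under the alternatives, Egr1 and Junb were called in every alternative, and all 14 kept their direction. None of the other calls held without 3 h replicate 1 or without 3 h replicate 2. Over the lists together 17 genes were called, 3 without 6 h replicate 1 and 2 without any other 1 of the treated libraries.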

How the results depend on the processing

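All 9 log2 fold changes of the Gadd45 genes kept their sign in the 18 settings. Library size alone moved the medians of all genes from 0.02, 0.04 and 0.01 to 0.25, 0.40 and 0.14. It gave 1.75, 2.20 and 0.44 for Gadd45a (3 h, 6 h, and 6 h against 3 h), 2.02 for Gadd45b at 6 h and 3.87 and 5.89 for Gadd45g at 3 h and 6 h, and called 1373 genes at 3 h. A prior count of 2 gave 3.50 for Gadd45g at 3 h. Without single libraries, Gadd45g ranged from 3.49 to 3.76 at 3 h, from 5.18 to 5.81 at 6 h and from 1.54 to 2.17 between them, and Gadd45b from 0.78 to 1.42 at 3 h and from 0.24 to 0.88 between 3 h and 6 h. The called genes over all genes numbered 625, 3703 and 209 for 3 h, 6 h, and 6 h against 3 h, and the genes in the lists 29, 64 and 17. Without single libraries these ranged from 108 to 1033, 1312 to 3578 and 14 to 595, and in the lists from 14 to 32, 37 to 68 and 2 to 27. Without a filter, 1812 genes were called at 3 h and 1058 between 3 h and 6 h (lists: 52 and 32), and with DESeq2 1447 and 688 (lists: 47 and 30). Between 3 h and 6 h, limma-voom called 508 (lists: 28) and a fit to the groups compared alone 563 (lists: 27), which called 218 at 3 h. The replicate block called 126 genes between 3 h and 6 h. Replicate numbers in the titles are not stated to pair libraries, and the deviations of same-numbered libraries correlated at 0.15, -0.04 and 0.01 over 10050 genes, so they were not treated as pairs. The cause of these shifts was not tested. Fewer counts limit Gadd45g most, with 11 and 8 in control.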

Other observations

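The nearest tested gene on each side of every Gadd45 gene was examined by position, a choice made after the values of the family were seen. None of them passed the test at 3 h or 6 h against control (edgeR). Beside Gadd45a, Serbp1 (201 kb between starts) stood at -0.15 (3 h) and -0.26 (6 h) on the log2 scale (adjusted p = 0.357 and 0.0673), and the overlapping E230016M11Rik had 0.60 and 1.67 (adjusted p = 0.561 and 0.0531). Beside Gadd45b, Lmnb2 (11.8 kb), which encodes a lamin, had -0.24 and -0.35 (adjusted p = 0.344 and 0.103), and Gng7 (84.9 kb) had -0.11 and -0.47 (adjusted p = 0.841 and 0.242). Beside Gadd45g, Sema4d (52.9 kb) had -0.42 and -0.95 (adjusted p = 0.497 and 0.0742). Diras2 (685 kb) was fitted at 5.06 and 6.93 (adjusted p = 0.32 and 0.0656). It had 0 counts in both controls and at most 32 in any library, so the size of its rise is poorly known.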
